A study of Mus musculus with 14 samples.

Results

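The MEF2 transcription factors and the class IIa histone deacetylases were followed in cultured mouse cortical neurons as 8 genes, taken by symbol from the deposited gene and transcript tables. They are Mef2a, Mef2b, Mef2c, Mef2d, Hdac4, Hdac5, Hdac7 and Hdac9, which is 8 of 52459 gene symbols. Their 108 transcript models are among 131100 listed. All 8 genes and 57 of the 108 transcripts passed the filter on low counts.

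MEF2 factors are MADS-box proteins that bind A/T-rich sites in the control regions of muscle, immune and neuronal genes. Class IIa deacetylases carry an N-terminal stretch that binds MEF2, and they keep MEF2 target genes silent while they sit in the nucleus. In depolarised neurons calcium acts on both partners: kinases phosphorylate the deacetylases, which are then held by 14-3-3 proteins in the cytoplasm, and the phosphatase calcineurin dephosphorylates MEF2.

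RNA was measured in 14 libraries of primary cortical neurons from E16.5 embryos. BRG1 is the ATPase subunit of BAF, a chromatin remodeller, and its serine S1382 was replaced by alanine (SA) or by glutamate (SE), or was intact in wild-type littermates. All cultures received 1 µM TTX, a sodium channel blocker, and 100 µM APV, an NMDA receptor blocker, on day 5 in vitro, and on day 6 they were given 50 mM KCl for 1 h or left basal. The labels do not say whether 1 or both alleles carried the substitution. The SA line supplied SA and wild-type groups of 2 libraries at each treatment, and the SE line supplied 2 SE libraries and 1 wild-type library at each treatment.

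The basal and the KCl library with the same genotype, line and replicate number are called a culture here, which gives 7 cultures, although the labels do not say that the 2 libraries share a plate or an animal. The labels also do not say whether replicates came from separate cultures or animals, so the p-values measure only the spread between these libraries. A substitution of 1 residue leaves gene counts with nothing to check the genotype labels against. Each library held 22625916 to 23096206 estimated counts. Markers of neurons were high in every library, at a sum of 1887 to 2887 TPM, the share of a library's transcripts after division by length, over 4 genes. The lines differed in other cell types: the 6 glutamatergic markers summed to 351 to 521 TPM in the SA line and 957 to 1039 TPM in the SE line, and the 6 GABAergic markers to 312 to 433 and 90.7 to 152 TPM. The 6 neural progenitor markers summed to 746 to 2952 TPM in the SA line and 220 to 298 TPM in the SE line, although 1 of the 6 was higher in the SE line at basal. The 5 astrocyte markers summed to 873 to 1399 TPM in the SA line and 189 to 242 TPM in the SE line. The 5 oligodendrocyte-lineage markers summed to 311 to 438 and 57.7 to 72.4 TPM. In bulk RNA, fewer cells of a type and less RNA per cell cannot be told apart.

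Mef2c, the MEF2 gene best known from developing cortex, was the most abundant member, at 240 ± 118 TPM (SD, n = 14) and at percentile 97.1 of the genes tested. Its lowest library, at 136 TPM, lay above the highest library of any other member, 90.1 TPM of Hdac5. Hdac5 at 65.8 ± 10.01 TPM, Mef2d at 64.1 ± 10.4 TPM and Mef2a at 56.8 ± 15.8 TPM followed, and these neighbours differed by less than their SDs. Hdac4 at 11.7 ± 1.79 TPM and Hdac7 at 11.3 ± 2.69 TPM also differed by less than their spread. Hdac9 averaged 8.08 ± 4.44 TPM. Mef2b, known chiefly from B cells, was the lowest at 1.19 ± 0.859 TPM, and its range of 0.289 to 3.05 TPM met the lower end of Hdac9, whose range was 2.91 to 13.99 TPM. TPM is divided by transcript length, so these levels can be set beside each other.

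On GRCm38, in the GENCODE M21 annotation, Mef2a lies at chr7:67231163-67372858 on the minus strand, and Mef2b at chr8:70139711-70167488, Mef2c at chr13:83504034-83667080 and Mef2d at chr3:88142372-88172086 on the plus strand. The deacetylases are all on the minus strand: Hdac4 at chr1:91928779-92195699, Hdac5 at chr11:102194432-102230166, Hdac7 at chr15:97792664-97844502 and Hdac9 at chr12:34047580-34917095. A single model led in some genes, with Mef2a-208 at 83.5% of the TPM of its gene, Mef2b-203 at 98.3% and Hdac4-202 at 62.1%. Others were split: Mef2d into Mef2d-201 (49.7%), Mef2d-203 (29.5%) and Mef2d-204 (18.1%), and Hdac5 into the coding models Hdac5-204 (29.6%) and Hdac5-202 (21.7%) and the nonsense-mediated decay model Hdac5-205 (17.2%). Hdac4 also had Hdac4-206 (15.5%) and Hdac4-205 (14.7%), and Mef2a had Mef2a-203 (11.8%). The shares of Hdac4-206 and Hdac4-205 rest on few reads of short models. They held 305 and 254 estimated counts over the 14 libraries at lengths of 938 and 849 bases. Hdac4-202 held 12284 counts at 8100 bases. Hdac7 was spread over Hdac7-202 (40.8%), Hdac7-209 (21.8%) and a retained-intron model (16.8%). Hdac9 was led by Hdac9-201 (43.9%), Hdac9-208 (21.6%) and Hdac9-205 (19.5%), and Mef2c by Mef2c-212 (54.3%), Mef2c-217 (17.6%) and Mef2c-223 (14.2%). Models of a gene share most of their exons, so the split is an estimate of the quantification, not a direct count.

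**Figure D1:**
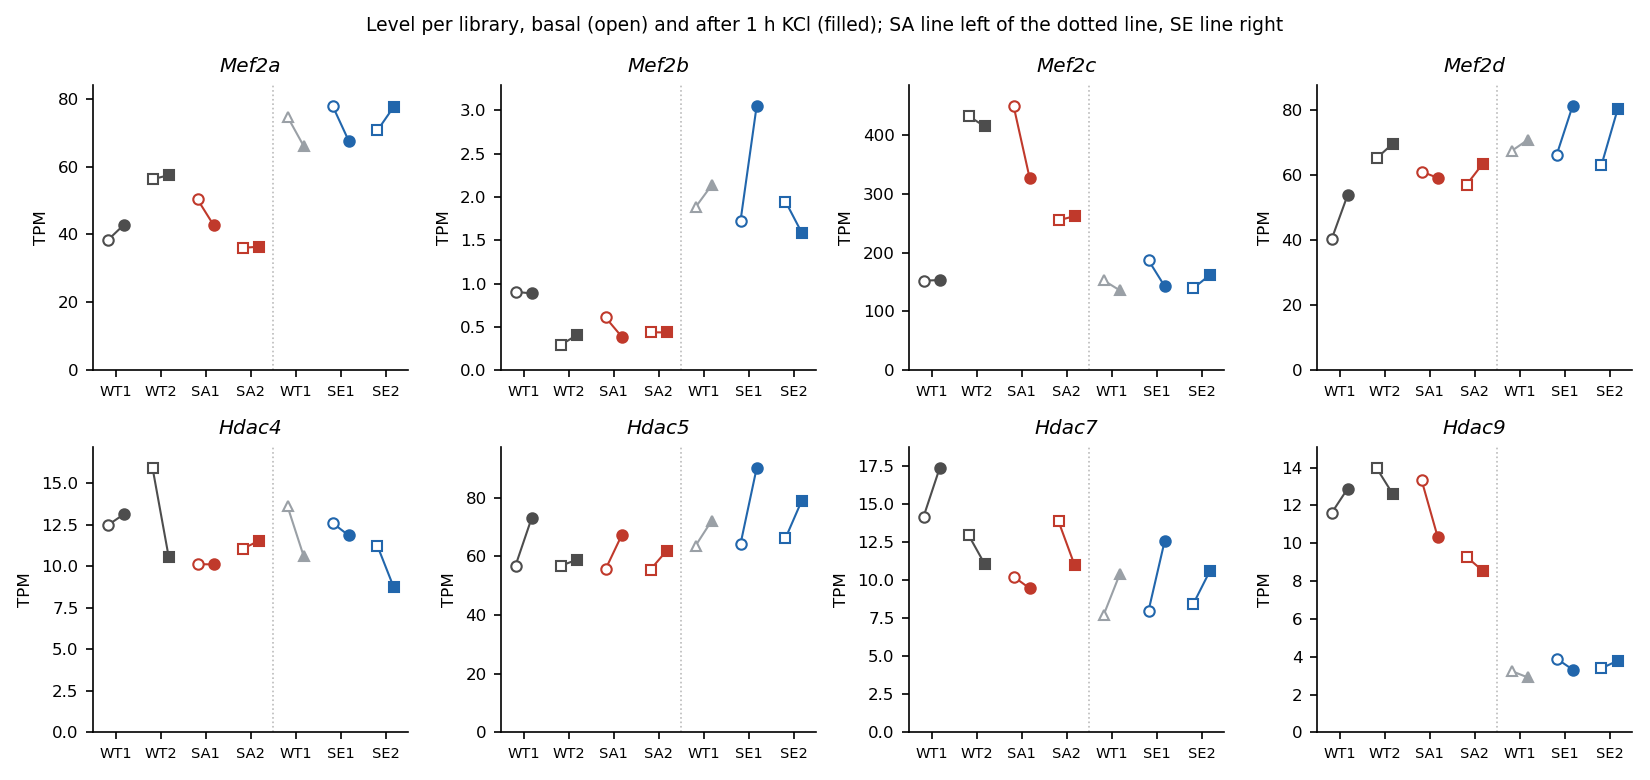
Level of each member in TPM (vertical axis, from 0) in the 14 libraries. Each pair of joined points is a culture, open at basal and filled after 1 h of KCl, with wild type in grey, SA in red and SE in blue; WT1, WT2, SA1, SA2, SE1 and SE2 are replicate numbers. Hdac9 lies between 8.55 and 13.99 TPM in the SA line and between 2.91 and 3.90 TPM in the SE line, and Hdac5 is higher after KCl in all 7 cultures.

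No member passed the test for a change after 1 h of KCl, where edgeR's quasi-likelihood test over all cultures called 854 of 17732 genes (4.82%). Of these, 499 rose and 355 fell. The 8 fitted differences ran from -0.18 (Hdac4) to 0.22 (Hdac5) on the log2 scale, with 4 above and 4 below 0. Their median was 0.037, against 0.0086 over all genes. At an unadjusted p under 0.05 the test gave 2 of 8 members, Hdac5 and Hdac4, where the share over all genes was 13.8%.

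Hdac5, a deacetylase that leaves the nucleus on neuronal activity, came nearest to a call. In the SA line its basal levels were 113 and 110 CPM, which are counts scaled to library size, in wild type and 118 and 120 CPM in SA, and its KCl levels were 136, 124, 141 and 129 CPM in the same order. In the SE line the basal levels were 143 CPM in wild type and 145 and 155 CPM in SE, and the KCl levels were 166, 194 and 165 CPM. Each KCl library was thus above the basal library of its own culture, while basal and KCl libraries overlapped across lines. The log2 difference was 0.22 ± 0.061 (SE), a fold of 1.16, with an adjusted p of 0.0818 in edgeR. A move in 1 direction in all 7 cultures was seen in 13.3% of genes. DESeq2 called Hdac5 (adjusted p = 0.0223), the single member it called in that comparison.

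Hdac4, which represses synaptic genes when it is nuclear, was lower after KCl in 5 of 7 cultures, at a log2 difference of -0.18 ± 0.072 and an adjusted p of 0.259 in edgeR. Mef2d, a MEF2 factor that supports the survival of neurons, was higher in 6 of 7 cultures (0.19 ± 0.11, adjusted p = 0.561). Hdac7, known for its work in endothelium and thymocytes, stood at 0.19 ± 0.14 (adjusted p = 0.713). Mef2a, Mef2b, Mef2c and Hdac9 had log2 differences between -0.059 and 0.077. Their 95% intervals were -0.29 to 0.25 for Mef2a and -0.23 to 0.22 for Hdac9. Those of Mef2c (-0.67 to 0.55) and Mef2b (-0.62 to 0.78) were wider. These intervals bound how large a change could have passed unseen in a fit that does not pair libraries. They thus include the spread of level between cultures. Culture by culture, the log2 change of Mef2c in CPM ran from -0.33 (SA culture 1) to 0.16 (SE culture 2).

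The response did not pass the test within either line. In the SA line edgeR called 2.02% of genes and 0 members, with 1 member at an unadjusted p under 0.05, against 8.05% of genes. In the SE line it called 2.81% of genes and 0 members, with 2 members at an unadjusted p under 0.05, against 11.5% of genes. Hdac7 differed most between the lines. In the SE line its basal levels were 15.1, 15.0 and 14.5 CPM and its KCl levels 19.2, 23.4 and 18.5 CPM, so those libraries did not overlap. The share of all genes with such a split in the SE line was not counted. In the SA line its basal levels were 32.5, 23.9, 21.3 and 28.2 CPM and its KCl levels 38.4, 23.6, 18.7 and 26.0 CPM, so only 1 of 4 cultures was higher. The difference between the lines in the response of Hdac7 was 0.46 ± 0.29 on the log2 scale and did not pass (adjusted p = 1.00, edgeR). That test called 0.152% of genes and no member, none of them at an unadjusted p under 0.05, against 3.08% of genes. When the SE line was fitted alone, the response of Hdac7 (log2 0.45, adjusted p = 0.00955) and Hdac4 (log2 -0.30, adjusted p = 0.0458) passed.

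**Figure D2:**
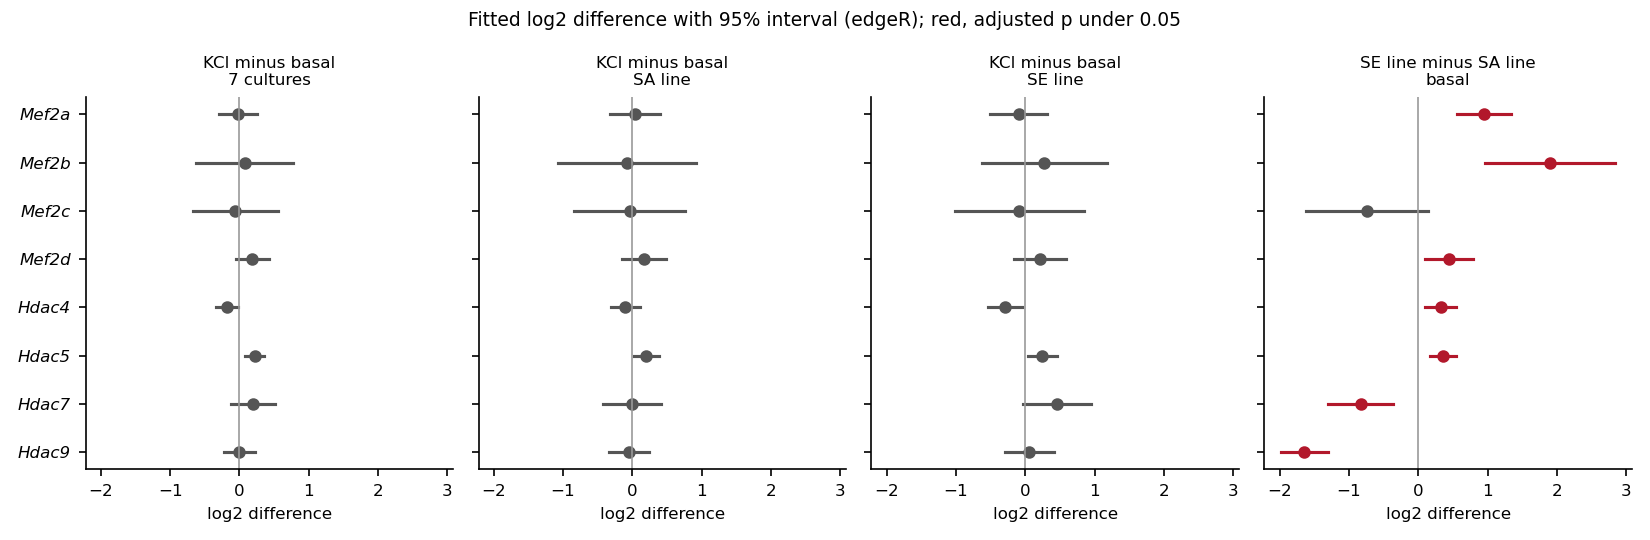
Fitted log2 difference of each member (horizontal axis) with its 95% interval from edgeR, for KCl against basal over all 7 cultures, in each line, and for the SE line against the SA line at basal. Red marks an adjusted p under 0.05. The KCl differences lie between -0.30 and 0.46, and 7 of 8 members are red in the comparison of lines.

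The BRG1 substitutions did not move any member past the threshold. SA and its wild type, and SE and its wild type, were compared at basal, after KCl and in the size of the KCl response, and edgeR called 0 of 8 members and 0 of 17732 genes (0%) in each of these 6 comparisons. No member had an unadjusted p under 0.05 in any of them, while 122 to 2040 genes did, and neither DESeq2 nor limma called a member. Over all genes DESeq2 called 126 for SA after KCl and at most 1 in each of the others. At basal the log2 difference of SA from wild type ran from -0.19 (Hdac7) to 0.47 (Mef2c), and that of SE from its single wild-type library from -0.25 (Hdac4) to 0.23 (Hdac9). After KCl the largest were -0.51 (Mef2b) for SA and 0.18 (Mef2d) for SE. Hdac5 was the most tightly bounded member, with a 95% interval of -0.17 to 0.34 for SA at basal and -0.25 to 0.38 for SE at basal. For Mef2b in SA the interval was -1.49 to 1.30, and for Mef2c in SE it was -1.36 to 1.43. Of 57 member transcripts, edgeR called none in these comparisons, where 0.00209% of 47808 transcripts passed for SA at basal, 0.0146% for SE at basal, 0.023% for the difference in response of SE and 0% in the other 3. At an unadjusted p under 0.05 there were 1, 3 and 1 member transcripts for SA at basal, after KCl and in the response, against 4.57%, 6.23% and 2.41% of transcripts. For SE there were 2 in each, against 3.55%, 3.55% and 4.01%.

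The 2 lines differed in most members. At basal, edgeR called 7 of 8 members between the SE line (3 libraries) and the SA line (4 libraries), cultures weighted equally, against 47.8% of all genes. At an unadjusted p under 0.05 there were the same 7 members, against 54.7% of genes. Higher in the SE line were 5 members, against 21.8% of genes, and lower were 2, against 26% of genes. Over both treatments the libraries of the lines did not overlap in CPM for Mef2a, Mef2b, Mef2d, Hdac5 and Hdac9, a pattern seen in 39.4% of genes. Line cannot be told apart from anything else that differed between the 2 sets of cultures, including the marker levels given above, whose part in these differences was not tested.

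Among the MEF2 genes, Mef2a had basal levels of 98.6, 135, 137 and 98.9 CPM in the SA line and 228, 234 and 218 CPM in the SE line. Every SE-line library was higher, by a log2 difference of 0.95 ± 0.17 or 1.93-fold (adjusted p = 0.00155, edgeR). Its main transcripts moved alike: Mef2a-208, with 83.5% of the TPM of the gene, had a log2 difference of 1.01 ± 0.19 (adjusted p = 0.00792) and Mef2a-203 one of 1.18 ± 0.22 (adjusted p = 0.0081). Mef2b was scarce in both lines, at 0.748, 0.207, 0.521 and 0.385 CPM in the SA line and 1.83, 1.62 and 1.87 CPM in the SE line. That is a 3.75-fold difference (log2 1.91 ± 0.42, adjusted p = 0.00442), with no overlap. Mef2b overlaps Borcs8 on the same strand, and the part of reads from Borcs8 in its level was not tested. Mef2d was 1.36-fold higher in the SE line (log2 0.44 ± 0.15, adjusted p = 0.0398). That call was lost, at a log2 difference of 0.25 (adjusted p = 0.216), when limma was run on log2(TPM + 1), and when any single library was left out other than 4: the KCl library of wild-type replicate 1 and both of wild-type replicate 2 in the SA line, and the wild-type KCl library of the SE line.

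Mef2c varied widely between the cultures of the SA line. Within the SA line it stood at 152 TPM at basal and 153 TPM after KCl in wild-type culture 1, 432 and 415 TPM in wild-type culture 2, 450 and 326 TPM in SA culture 1, and 255 and 262 TPM in SA culture 2. The 6 SE-line libraries lay between 136 and 187 TPM. Only wild-type culture 1 of the SA line fell inside the SE-line range, and the other 3 cultures were above it in both libraries. The SD of log2 CPM within a line was 0.50 for Mef2c, at percentile 83.8 of the genes tested, with 0.64 in the SA line and 0.12 in the SE line. The SE line was 1.67-fold lower (log2 -0.74 ± 0.39) and not called (adjusted p = 0.151, edgeR). Without the basal library of wild-type culture 1 it was called (log2 -1.002, adjusted p = 0.0438), and without the basal library of wild-type culture 2 the difference was -0.32 (adjusted p = 0.479).

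Markers of other cells differed in that culture, in both directions. Wild-type culture 1 of the SA line had progenitor marker sums of 2623 and 2952 TPM, the highest of all libraries. The other SA-line libraries had 746 to 1592 TPM, the lowest in SA culture 1, where Mef2c reached 450 TPM at basal. Its 3 mural cell markers summed to 635 and 765 TPM, against 180 to 601 TPM in the other SA-line libraries and 17.2 to 27.6 TPM in the SE line. Its neuronal sums were low: the 4 markers of all neurons stood at 1991 and 1887 TPM, against 2166.3 to 2887 TPM in the other SA-line libraries, and the glutamatergic markers at 351 and 407 TPM, against 357 to 521 TPM. The 5 astrocyte markers were also low in wild-type culture 1, at 926 and 873 TPM, against 1078.5 to 1399 TPM in the other SA-line libraries. The part of these cells in the level of Mef2c was not tested.

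Among the deacetylases, Hdac9 differed most between the lines. Its basal levels were 26.4, 29.1, 30.4 and 21.2 CPM in the SA line and 7.73, 9.55 and 8.51 CPM in the SE line. All SE-line libraries were below all SA-line libraries, 3.12-fold lower in the fit (log2 -1.64 ± 0.15, adjusted p = 3.12e-05, edgeR). Hdac7 was 1.78-fold lower in the SE line (log2 -0.83 ± 0.21, adjusted p = 0.00899). Its basal libraries did not overlap between the lines, but its libraries over both treatments did. The share of all genes split at basal alone was not counted. The library highest in Hdac7, at 17.4 TPM, was the KCl library of wild-type culture 1 in the SA line. It also had the highest sum of the 5 endothelial markers, 17.2 TPM, against 0.97 to 1.54 TPM in the SE line. Its sums of neural progenitor (2952 TPM), mural cell (765 TPM) and meningeal fibroblast markers (53.6 TPM) were the highest as well. The part of any of these cells in the level of Hdac7 was not tested. The endothelial genes Cldn5 and Tie1 did not exceed 0.243 and 0.17 TPM in any library, and are named after their values were seen.

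Hdac5 was 1.28-fold higher in the SE line at basal (log2 0.36 ± 0.086, adjusted p = 0.00724) and Hdac4 1.252-fold higher (log2 0.32 ± 0.10, adjusted p = 0.0249). Both depended on the scale. With limma on log2(TPM + 1) the differences were 0.20 (adjusted p = 0.105) and 0.024 (adjusted p = 0.909). Mean TPM of Hdac4 was 11.8 ± 1.96 in the SA line (n = 8) and 11.4 ± 1.69 in the SE line (n = 6). The call for Hdac4 was also lost when any of 4 basal libraries was left out: wild-type replicate 1 or SA replicate 2 of the SA line, and wild-type replicate 1 or SE replicate 1 of the SE line.

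Over all cultures, 1 of 57 member transcripts rose after KCl and none fell, where 1.98% of 47808 transcripts were called, so the members' share is near that of all transcripts. At an unadjusted p under 0.05 there were 9 of 57, against 11.9% of transcripts. Within the SA line, within the SE line and in the difference between them no member transcript passed, against 0.535%, 1.01% and 0.0397% of transcripts, with 11, 6 and 3 at an unadjusted p under 0.05, against 6.91%, 10.1% and 4.7%. The one called was Hdac5-218 (ENSMUST00000150965.7), annotated as a retained intron, which covers chr11:102195749-102197868 on the minus strand of GRCm38 near the 3′ end of Hdac5. It has 6 exons and 1008 bases. Its first exon opens inside an intron of 1011 bases of the coding model Hdac5-204 and runs on into the next exon. The sequence below shows that junction, because it sets the model apart from spliced Hdac5. It reads 5′ to 3′ from chr11:102197766-102197868, with the 83 bases that Hdac5-204 splices out in capitals.

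Hdac5-218 first exon, intron to exon: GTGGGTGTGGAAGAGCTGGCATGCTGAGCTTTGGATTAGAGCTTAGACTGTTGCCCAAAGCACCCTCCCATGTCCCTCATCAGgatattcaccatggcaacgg

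At basal Hdac5-218 stood at 0.233 and 0 TPM in the 2 wild-type cultures of the SA line, 0.085 and 0 TPM in SA, 0 TPM in wild type of the SE line, and 0.395 and 0.334 TPM in SE. After KCl the values in the same order were 2.69, 0.886, 1.27, 0.867, 4.12, 3.03 and 4.15 TPM. All 7 KCl libraries were above all 7 basal libraries, a pattern whose share over all transcripts was not counted. The summed estimated counts were 14.3 at basal and 227 after KCl, and the log2 difference was 4.61 ± 0.64 (adjusted p = 0.00969, edgeR). With so few basal counts its size is imprecise, at a 95% interval of 3.14 to 6.07. It passed the filter on low counts only through the KCl libraries, where it was high. Its p therefore does not stand apart from that selection. Hdac5-219, another retained-intron model, went from 4.03 to 66.1 summed counts and was higher in 7 of 7 cultures, without passing (adjusted p = 0.0796). The same limit of the filter holds for Hdac5-219. Among cell type markers, Dlx5 and Dlx2 of the 6 GABAergic genes rose after KCl (2.17-fold and 1.61-fold, adjusted p = 5.57e-05 and 0.0168), and their part in these transcripts was not tested.

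Together the retained-intron models of Hdac5 summed to 6.27 ± 0.945 TPM at basal (SD, n = 7) and 13.0 ± 2.88 TPM after KCl. The basal libraries lay between 4.70 and 7.32 TPM and the KCl libraries between 8.96 and 17.6 TPM, without overlap. Their share of Hdac5 TPM was 10.5% ± 1.502 at basal and 17.99% ± 2.15 after KCl. In estimated counts, which are not divided by length, the share was 5.201% ± 0.658 and 8.11% ± 0.988, also higher in 7 of 7 cultures. The other Hdac5 models summed to 53.5 ± 4.32 and 58.8 ± 8.20 TPM, higher in 5 of 7 cultures, and to 2813 ± 254 and 3119 ± 378 estimated counts, higher in 7 of 7. This grouping was made after the values were seen and carries no test. Over the whole table, 1.40% of 7216 retained-intron transcripts rose after KCl, against 1.27% of all transcripts. The main coding models did not pass: Hdac5-204 had a log2 difference of 0.14 ± 0.081 and Hdac5-202 one of 0.27 ± 0.11 (adjusted p = 0.61 and 0.41).

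**Figure D3:**
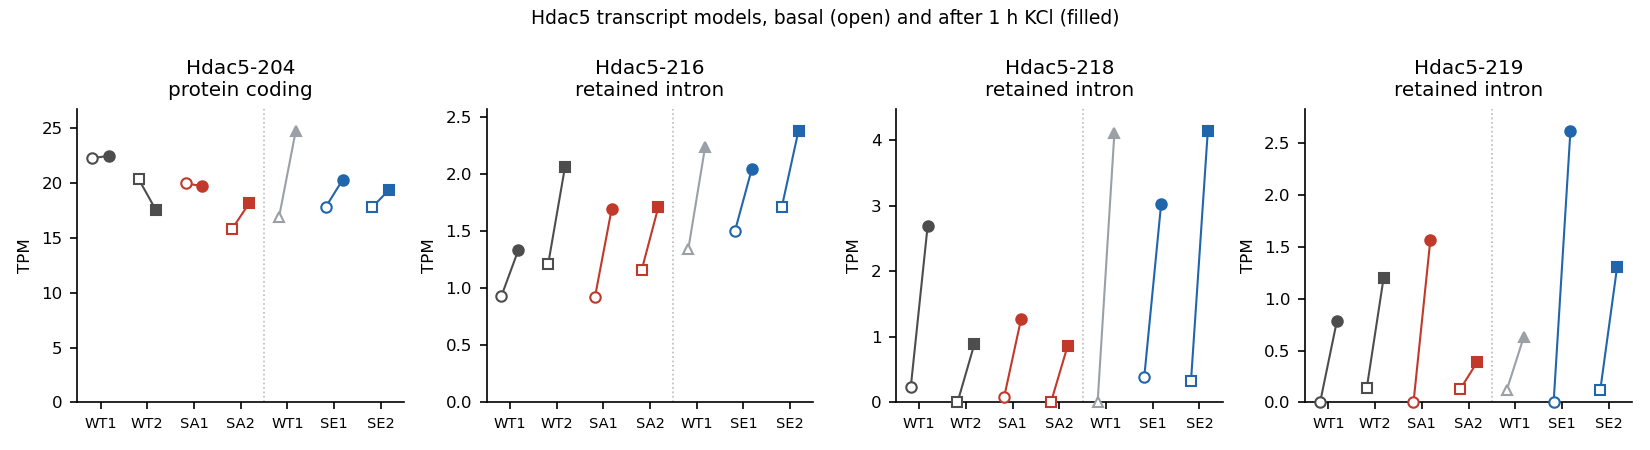
TPM (vertical axes, from 0) of 4 Hdac5 transcript models in the 7 cultures, open at basal and filled after 1 h of KCl. The coding model Hdac5-204 lies between 15.8 and 24.8 TPM, while Hdac5-218 is at most 0.395 TPM at basal and 0.867 to 4.15 TPM after KCl.

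The window before the Hdac5 start is shown because it holds a MEF2 site, in capitals, a motif found on either strand in 3.19% of 32851 RefSeq promoters. Motifs were searched on both strands from 250 bases before to 50 bases after each start. The match lies 20 to 11 bases before the start. Hdac5 and Mef2a were the members with such a match, in 1 promoter each of the 14 member promoters. The full cAMP response element TGACGTCA was in 1.79% of promoters and in no member. A match of letters does not show a site in use. The sequence is chr11:102230173-102230422, minus strand, from RefSeq on GRCm38.p6.

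Hdac5, 250 bases before the start: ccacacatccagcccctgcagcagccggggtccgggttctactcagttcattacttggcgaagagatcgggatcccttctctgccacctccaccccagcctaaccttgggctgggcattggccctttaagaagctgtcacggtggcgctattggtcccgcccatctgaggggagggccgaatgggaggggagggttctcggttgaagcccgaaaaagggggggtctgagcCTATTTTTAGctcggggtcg

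Mef2c models begin in several start regions. Its models were grouped by whether they begin within 3000 bases of the RefSeq starts at 83504034 (upstream), 83523656 (middle) and 83573607 (downstream). The downstream region gave 55.8% of Mef2c TPM, nearly all of it from Mef2c-212, the middle region 34.2% and the upstream region 5.93%. In TPM, upstream sums were higher after KCl in every culture and downstream sums in 1 of 7, a difference between regions that was not tested. The windows before the upstream and the downstream start are therefore shown. The first is chr13:83503784-83504033 and the second chr13:83573357-83573606, plus strand, RefSeq on GRCm38.p6. Capitals in the second mark a match to the AP-1 site TGANTCA, which 7.81% of promoters hold. The AP-1 site and the MEF2 site were absent from the first window. Mef2c-201, the main upstream model at a mean of 13.4 TPM, begins at 83504240, past that window. The bases directly before its start were not searched, so the first window does not describe its promoter.

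Mef2c, 250 bases before the upstream start: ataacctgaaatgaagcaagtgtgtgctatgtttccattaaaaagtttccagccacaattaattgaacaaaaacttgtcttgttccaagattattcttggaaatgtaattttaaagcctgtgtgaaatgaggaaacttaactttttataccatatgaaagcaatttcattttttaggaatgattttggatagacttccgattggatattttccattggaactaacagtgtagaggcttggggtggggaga
Mef2c, 250 bases before the downstream start: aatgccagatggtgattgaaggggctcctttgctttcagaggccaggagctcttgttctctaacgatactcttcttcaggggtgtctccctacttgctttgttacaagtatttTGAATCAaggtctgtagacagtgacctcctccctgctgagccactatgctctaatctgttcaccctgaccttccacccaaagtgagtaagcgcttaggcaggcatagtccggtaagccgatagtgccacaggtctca

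In TPM the upstream models were higher after KCl in 7 of 7 cultures, while the downstream and the middle models were each higher in 1 of 7. In estimated counts the contrast was weaker. Upstream counts were lower after KCl in SE culture 2 (1171.8 to 1136.4). Downstream counts were higher in wild-type culture 2 of the SA line (15278 to 15723) and in SA culture 2 (10930 to 10980). They were also higher in SE culture 2 (6441.2 to 7015.6). Middle counts were higher in SA culture 2 (2699.8 to 2732.5) and SE culture 2 (1003.4 to 1272). In the SA line, upstream TPM went from 6.51 to 10.8 and from 10.7 to 24.9 in wild type, and from 17.5 to 19.6 and from 9.14 to 18.5 in SA. In the SE line it went from 13.1 to 14.1 in wild type, and from 8.84 to 16.4 and from 14.8 to 15.0 in SE. The mean was 11.5 ± 3.82 TPM at basal and 17.0 ± 4.52 TPM after KCl, and the 2 sets overlapped. The upstream share of Mef2c TPM was higher after KCl in 6 of 7 cultures. The main upstream transcript, Mef2c-201, had a log2 difference of 0.61 ± 0.25 and did not pass (adjusted p = 0.38, edgeR), and Mef2c-212 had one of -0.095 ± 0.29. The start regions were grouped after their values were seen, so their sums carry no test.

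The balance of start regions also differed between the lines. The middle region held 33.1% to 39.9% of Mef2c TPM in the 8 SA-line libraries. In the 6 SE-line libraries it held 24.6% to 31.7%, without overlap. How often other genes show such a split of shares was not counted, and the difference was not tested. The regions were grouped after their values were seen. In gene CPM, the lines did not overlap in 39.4% of genes. The downstream region held 54.4% ± 1.99 in the SA line and 59.2% ± 1.42 in the SE line. Upstream models held 5.04% ± 1.71 in the SA line and 9.16% ± 2.41 in the SE line.

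**Figure D4:**
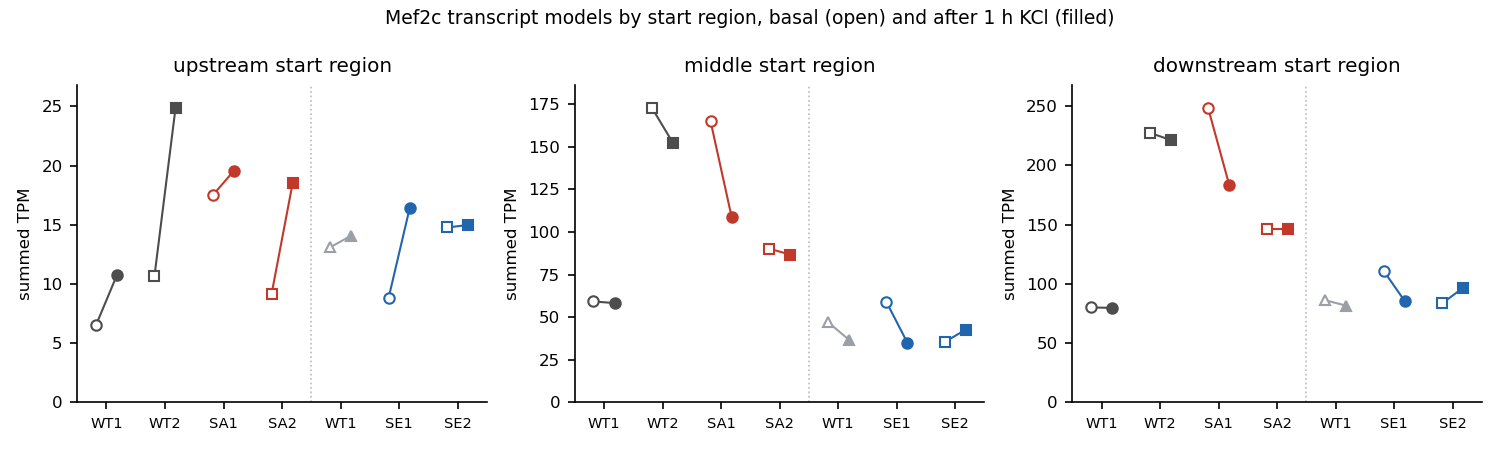
Summed TPM (vertical axes, from 0) of the Mef2c transcript models that begin in the upstream, middle and downstream regions, in the 7 cultures, open at basal and filled after 1 h of KCl. The upstream sum is higher after KCl in 7 of 7 cultures and reaches 24.9 TPM, and the downstream sum spans 79.8 to 248 TPM.

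Hdac9 is known to make a short protein that binds MEF2 but lacks the deacetylase domain, from transcripts that stop before the 3′ exons. Such models carried most of the coding signal: 72.9% ± 4.44 of coding-model TPM (SD, n = 14), with a range of 64.3% to 80.8%. The largest was Hdac9-201, with 43.9% of the TPM of the gene and 1764 coding bases, against 3192 in the full-length Hdac9-205. Both were lower in the SE line at basal, Hdac9-201 by a log2 difference of -1.67 ± 0.22 (adjusted p = 0.00163) and Hdac9-205 by -1.61 ± 0.20 (adjusted p = 0.0011). The short share was 72.0% ± 3.74 in the SA line and 74.1% ± 5.36 in the SE line, and the ranges overlapped. After KCl the share was lower in 7 of 7 cultures, with changes of -16.4 to -0.343 percentage points, and its mean went from 75.0% ± 3.27 to 70.8% ± 4.65. Most of that came from 2 cultures, wild type of the SE line (-16.4) and SA culture 2 (-7.95). The mean change was -4.24 points, and -2.21 without the wild-type culture of the SE line. The split was made with values known and was not tested, and the 2 sets overlapped.

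**Figure D5:**
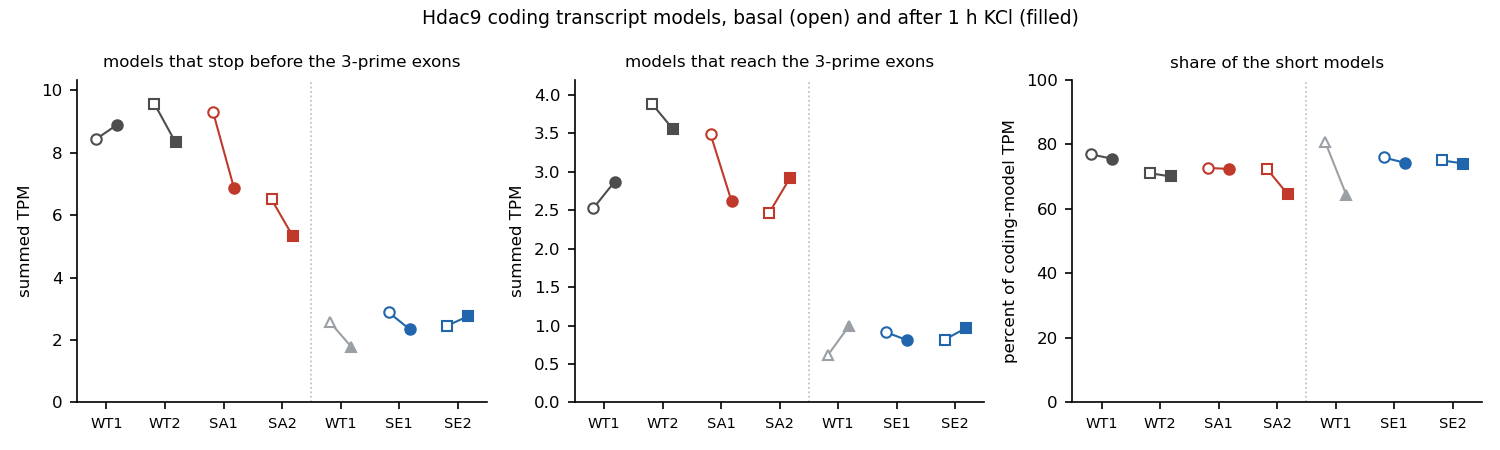
Hdac9 coding models that stop before the 3′ exons and those that reach them, as summed TPM (vertical axes, from 0), and the share of the short models in percent, in the 7 cultures, open at basal and filled after 1 h of KCl. Short models hold 64.3% to 80.8% of coding TPM in both lines, while their sum is 5.33 to 9.56 TPM in the SA line and 1.78 to 2.89 TPM in the SE line.

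In all, 9 of 57 member transcripts were called between the lines at basal, against 19% of transcripts. Beside the Hdac9 and Mef2a transcripts given above, these were Hdac9-209, a retained-intron model at 0.288 to 0.559 TPM in the SA line and 0 to 0.172 TPM in the SE line, and Hdac5-205, a nonsense-mediated decay model (log2 0.55 ± 0.14, adjusted p = 0.0294). Hdac4-202, with 62.1% of the TPM of its gene, had a log2 difference of 0.39 ± 0.11 (adjusted p = 0.0397). Hdac7-201 and Mef2a-201, minor models, were called lower in the SE line (log2 -9.01 and -8.91, adjusted p = 0.0475 and 0.0485). The direction of Mef2a-201 was opposite to that of Mef2a-208, Mef2a-203 and the gene. Hdac7-201 and Mef2a-201 were listed at 0 in 4 and 2 of the 6 SE-line libraries. Their medians were 0 and 0.00528 TPM in the SE line and 0.511 and 1.86 TPM in the SA line. Both may have passed the filter on low counts mainly through the SA-line libraries, so their p may not stand apart from that selection. Both calls were lost when any of the 7 basal libraries was left out. That of Hdac9-209 was lost without the basal wild-type library of the SE line (adjusted p = 0.051), that of Hdac5-205 without any of the 4 basal SA-line libraries or SE basal replicate 2, and that of Hdac4-202 without any of 11 libraries.

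Kinases and other handlers of the deacetylases were taken from a list of 27 genes. After KCl, 1 of 27 rose and none fell, where 2.81% of all genes rose, and the list's median log2 difference was 0.02. The one that rose was Sik1, a salt-inducible kinase that phosphorylates class IIa deacetylases and is itself an activity-induced gene, by 5.70-fold (log2 2.51 ± 0.061, adjusted p = 7.54e-09, edgeR), higher in 7 of 7 cultures. The next by p did not pass: Mark3 at 0.10 ± 0.052, Sik3 at 0.091 ± 0.062 and Mark2 at 0.11 ± 0.081, which like Sik1 are AMPK-related kinases. Between the lines at basal, 9 were higher and 6 lower in the SE line, where 21.8% of all genes were higher and 26% lower. The lower ones included the 3 protein kinase D genes, chosen here after their values were seen, at log2 differences of -1.33 (Prkd1), -1.32 (Prkd2) and -2.17 (Prkd3).

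Among partners of the 2 families, 4 are described, and none of them was called after KCl. Mapk7, the kinase ERK5 that phosphorylates MEF2, stood at a log2 difference of -0.11 ± 0.057, and Hdac3, the catalytic partner of the class IIa enzymes, at 0.078 ± 0.045. Ncor1, a corepressor that holds Hdac3, stood at -0.14 ± 0.088, and Ankra2, an ankyrin-repeat protein that binds class IIa deacetylases, at -0.083 ± 0.062. Neither did any of 6 other deacetylases pass, with log2 differences between -0.051 (Hdac2) and 0.17 (Hdac8).

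Of 12 MEF2 target genes of neurons on the list, 7 rose after KCl and none fell, where 2.81% of all genes rose, with a median log2 difference of 1.62 against 0.0086 over all genes. Nr4a1, an orphan nuclear receptor, rose 138-fold and Arc, which regulates AMPA receptor endocytosis, 71.4-fold. Bdnf, a neurotrophin, rose 10.01-fold and Jun, an AP-1 subunit, 4.67-fold, with adjusted p from 3.34e-10 (Nr4a1) to 1.08e-06 (Jun) in edgeR. Other activity-driven factors act on most of these genes too, so the list is not specific to MEF2. It was also chosen with earlier results of these data known, so its share of risen genes carries no test. The remaining 5 did not pass. The response of 3, Jun, Arc and Nr4a1, was larger in the SE line (log2 1.98, 2.01 and 1.17) and that of Klf6 smaller (log2 -0.74), against 0.152% of genes called in that comparison, and these 4 are named after their values were seen.

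Across libraries the members did not vary as 1 group. On log2 CPM centred within each line (14 libraries, which share genotype and treatment groups), Mef2c had a Pearson r of 0.77 with Mef2a and 0.76 with Mef2d, and of -0.77 with Hdac7. Hdac5 and Hdac4 stood at -0.60. Among 10538 genes with a mean of at least 5 TPM, those most like Mef2c were B4galt6 (r = 0.990) and Pcdh19 (r = 0.986). For Mef2d they were Shank3 (r = 0.977) and Slc6a6 (r = 0.968), for Mef2a Ubr3 (r = 0.967) and Lpgat1 (r = 0.962), and for Mef2b Hmga1 (r = 0.916) and Ppie (r = 0.885). The closest to Hdac5 were Pard6a (r = 0.95) and Tlnrd1 (r = 0.944), to Hdac7 Crtc3 (r = 0.966) and Zkscan17 (r = 0.958), to Hdac9 Camta1 (r = 0.947) and Lrpprc (r = 0.945), and to Hdac4 Baz2a (r = 0.927) and Brd3 (r = 0.885). For B4galt6 and Pcdh19, the r with Mef2c was 0.995 and 0.997 within the SA line and 0.814 and 0.701 within the SE line. All these values are descriptions of 14 libraries and carry no test.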

How the data were processed

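Total RNA of 14 libraries was sequenced. The authors quantified transcripts with kallisto 0.43.1 on GRCm38, per the submitters' processing notes. The deposited estimated counts, which need not be whole (65.6% of nonzero gene values were not, at a tolerance of 1e-06), and the deposited TPM values, scaled by effective length and library, were given by the authors per transcript and per gene symbol, and each gene count equalled the sum of its transcripts. Transcript names, types and positions came from GENCODE M21. No source used here states strand-specific counting, so reads of Mef2a and the antisense gene Lysmd4, of Mef2d and 1700113A16Rik, and of Hdac7 and Slc48a1, may not have been separated. Models of 1 gene share most of their sequence, so their split rests on kallisto's model.

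Promoter sequences came from RefSeq (GRCm38.p6), where all 8 members matched. Counts were rounded, filtered with filterByExpr (genotype by treatment, 6 combinations), scaled by TMM and fitted with edgeR 4.0.16 (glmQLFit, glmQLFTest; R 4.3.3) as 8 group means, with 6 residual degrees of freedom. The single wild-type libraries of the SE line were assumed to vary like the other groups. The same was done for 47808 transcripts. A feature was called at p under 0.05 after Benjamini-Hochberg adjustment over every feature in the fit, and every adjusted p in the text is from edgeR's quasi-likelihood test unless another tool is named. CPM divide each count by the TMM-corrected library size. Scripts were tested on simulated data. Alternatives were DESeq2 1.42.0, limma 3.58.1 on log2(TPM + 1) and log2(TPM + 0.1), other scalings and filters, a replicate block and leaving out each library.

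Named were the 8 members, transcripts with at least 10% of a gene's TPM or called, up to 4 genes of each list with the lowest p after KCl, and the 2 genes most like each member. Exceptions are the other values of a list given as its range, and genes the text marks as picked with values known. Hdac5-219 and Mef2c-201 were also so chosen. An item of the partner list is not reported here, so that list has no count. Members and lists were chosen with earlier results of these data known.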

Additional observations from a re-analysis of the deposited data

How the results depend on the processing

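Alternative settings gave 1896 values for single member genes: 1864 kept their side of the threshold, 22 lost a call, 10 gained one and none of the called differences changed sign. For 0 called members after KCl over all cultures, DESeq2 gave 1 (Hdac5) and the replicate block 3 (Mef2d, adjusted p = 0.016, Hdac4, adjusted p = 0.0448, and Hdac5, adjusted p = 0.0105). For 0 in the SE line, the fit of that line alone and the replicate block gave 2 each (Hdac4 and Hdac7). The 7 members called between the lines were 4 with limma on log2(TPM + 1) or log2(TPM + 0.1), and 5 to 7 without single libraries. Transcripts called after KCl (1) were 4 in DESeq2, 0 with a mean of at least 1 CPM, where Hdac5-218 was no longer tested, and 1 to 3 without single libraries (3 without the KCl library of SA-line wild-type replicate 1). Transcripts called between the lines (9) were 15 in DESeq2 and 5 to 10 without single libraries (5 without SA basal replicate 1, SE basal replicate 2 or the basal wild-type library of the SE line). With SA-line wild-type culture 1 left out, an alternative chosen after seeing the data, Mef2c passed between the lines (log2 -1.003, adjusted p = 0.00223) and Hdac4 did not (adjusted p = 0.0565). The cause of these shifts was not tested.

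Replicate numbers did not establish pairs: deviations of same-numbered basal and KCl libraries from their group means correlated at 0.67 in wild type of the SA line, 0.422 in SA and -0.0512 in SE. The genes called after KCl over all cultures numbered 854, 590 to 835 without single libraries and 657 to 2328 under the other settings, with 2328 in the replicate block. In the SA line 359 genes became 166 to 1040, in the SE line 499 became 226 to 1771, and for the difference between them 27 became 12 to 146. The 946 transcripts called after KCl became 490 to 2129, and the 9090 between the lines 5004 to 11650. Calls between genotypes, 0 in edgeR, reached 126 genes for SA after KCl in DESeq2 and 75 and 86 for SE at basal and after KCl in the replicate block, with no member among them.

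Depth limits Mef2b, at a mean of 1.19 TPM, and minor transcripts such as Hdac5-218, whose 7 basal libraries held 14.3 estimated counts in all. Intervals cover the spread between these libraries only.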
